A study of Rattus norvegicus with 27 samples.

Results

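The 8 genes described here, Mal, Opalin, Ppp1r14a, Car2, Galnt6, Aspa, Ptgds and Apod, are genes of maturing oligodendrocytes that had shown large falls under interferon gamma (IFNγ) in an earlier look at the same arrays. They were picked by name from those falls, and every probe set annotated with one of these symbols alone was taken, which gave 9 probe sets (a second for Car2) and 8 of the 14218 genes measured. Gene expression was measured with 27 Affymetrix rat genome arrays of cultured oligodendrocyte precursor cells (OPCs), the glial progenitors that become myelinating oligodendrocytes. The cells came from cerebral cortices of Sprague-Dawley rat pups in the first week of life, were selected with magnetic beads against A2B5, a surface ganglioside of glial progenitors, and were expanded in PDGF with Noggin. The 9 groups held 3 arrays each, from 3 donors. They were OPCs kept in PDGF and sampled at 0 h, OPCs moved to thyroid hormone (T3) for 8, 24, 48 or 96 h, and OPCs given T3 together with IFNγ (T3+IFNγ) for the same times. The treated cultures had also lost PDGF and had spent longer in culture, so T3, the loss of PDGF and time cannot be told apart in a comparison with PDGF, whereas a T3+IFNγ culture and the T3 culture sampled with it differed in IFNγ. The cultures were bulk samples, in which fewer cells of a type and less RNA per cell cannot be told apart.

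Oligodendrocytes mature in steps. After leaving the cell cycle they switch on early myelin genes and, later, genes of compact myelin, of the paranodal loops and of the metabolism of the myelinating cell. Thyroid hormone drives these steps in culture, and IFNγ, the main cytokine of type 1 T cells, is known to hold it back. MAL is a lipid raft proteolipid of compact myelin, and OPALIN is a transmembrane sialoglycoprotein nearly restricted to oligodendrocytes. PPP1R14A (CPI-17) inhibits myosin phosphatase. Among the enzymes, carbonic anhydrase encoded by Car2 interconverts carbon dioxide and bicarbonate, GALNT6 starts O-linked glycosylation, ASPA (aspartoacylase) splits N-acetylaspartate into acetate and aspartate, and PTGDS makes prostaglandin D. APOD is a secreted lipocalin that carries small lipids.

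The promoters of 7 of the 8 genes were found in RefSeq (assembly GRCr8), and the 250 bases before the start site were searched on both strands for short core motifs of factors of oligodendrocyte maturation and of thyroid hormone receptors. Those of Mal, Opalin, Apod and Ptgds are shown because these genes stand for the patterns described below, with the letters of any match in capitals, 5′ to 3′ on the strand of the gene. The windows of Galnt6, Ppp1r14a and Aspa are not shown and lay wholly within the annotated spans of these genes. The Mal window is chr3:135341424-135341673 (minus strand), the Opalin window chr1:249858191-249858440 (minus strand, lying mostly within the annotated span of Opalin), the Apod window chr11:82935970-82936219 (plus strand) and the Ptgds window chr3:28682979-28683228 (minus strand).
Mal: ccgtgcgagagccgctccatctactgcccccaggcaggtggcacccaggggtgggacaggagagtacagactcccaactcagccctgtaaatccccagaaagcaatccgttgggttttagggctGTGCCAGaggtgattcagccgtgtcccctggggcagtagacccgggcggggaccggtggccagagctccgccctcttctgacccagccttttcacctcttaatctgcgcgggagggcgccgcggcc
Opalin: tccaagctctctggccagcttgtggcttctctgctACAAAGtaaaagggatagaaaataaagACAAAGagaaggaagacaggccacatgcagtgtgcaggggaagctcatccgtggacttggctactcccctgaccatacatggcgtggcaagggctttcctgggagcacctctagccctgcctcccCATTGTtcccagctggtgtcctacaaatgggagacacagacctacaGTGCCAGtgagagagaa
Apod: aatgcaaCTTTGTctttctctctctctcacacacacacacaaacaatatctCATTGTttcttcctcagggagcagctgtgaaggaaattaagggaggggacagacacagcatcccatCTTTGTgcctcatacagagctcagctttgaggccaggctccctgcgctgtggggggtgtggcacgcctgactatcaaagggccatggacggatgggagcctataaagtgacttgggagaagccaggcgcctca
Ptgds: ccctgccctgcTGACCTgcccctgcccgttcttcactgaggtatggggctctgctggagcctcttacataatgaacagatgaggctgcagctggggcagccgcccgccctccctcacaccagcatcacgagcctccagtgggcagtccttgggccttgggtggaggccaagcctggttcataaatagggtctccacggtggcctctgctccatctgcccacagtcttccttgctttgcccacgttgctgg
The capitals in Mal, and those nearest the start site in Opalin, mark CTGGCAC read on the other strand, the core letters bound by MYRF, the transcription factor of myelin genes. These letters were found in 2 of the 7 windows (Mal and Opalin) and in 3.78% of all 33469 promoter windows. ACAAAG, a core of the lineage factor SOX10, was found in Opalin and Apod (16.3% of all windows), and its form ACAATG in Opalin, Apod and Aspa (11.1%). AGGTCA, the hexamer bound by thyroid hormone receptors, was found in Ptgds (14.1%). CTGGTAC, another form of the MYRF core, was found in none of the 7, against 1.78% of all windows. Such matches describe the letters and do not show binding.

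Values are RMA signals on the log2 scale, in the order donor 1, 2 and 3. A signal is read within its own probe set, and levels of different genes are not compared. Changes are differences of group means with their standard errors (SE) from limma, fitted over all 27 arrays. A gene was called at a Benjamini-Hochberg adjusted p under 0.05 over all 14218 genes. The rule states no time for the falls. Earlier results gave them at 48 h (Aspa and Ptgds) or 96 h (the other 6), and these were taken as the times of the choice, so values at 48 and 96 h are given as a description and tests at 8 and 24 h. If falls at 8 or 24 h also entered the choice, the IFNγ comparisons at those times are descriptions too.

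**Figure D1:**
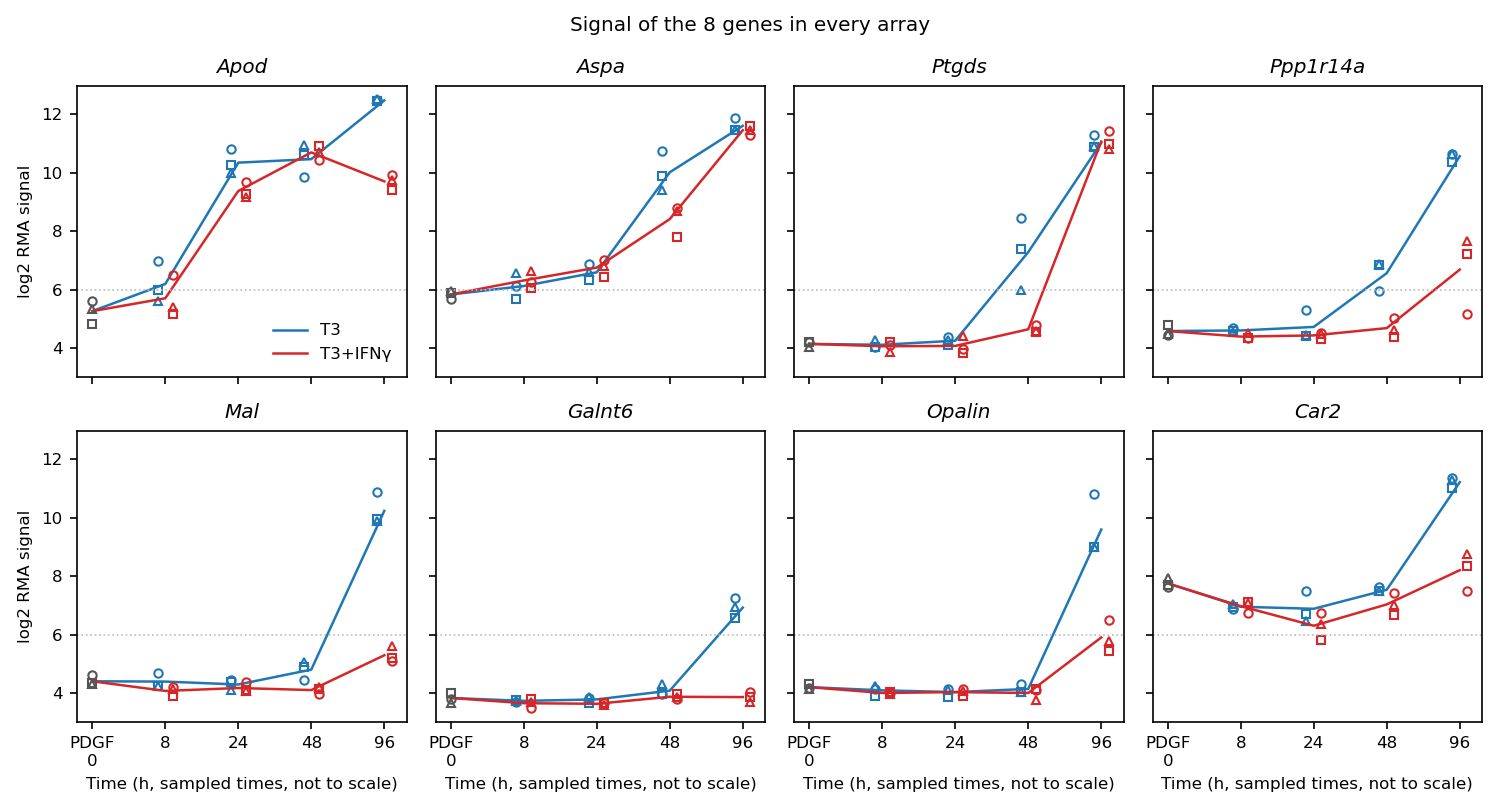
Signal (log2 RMA, vertical axis) of each of the 8 genes in all 27 arrays against sampled time (horizontal axis, not to scale). Circles, squares and triangles are donors 1, 2 and 3, lines join group means of T3 (blue) and T3+IFNγ (red) cultures from the shared PDGF arrays (grey), and the dotted line is the median of all values (5.99). At 96 h the T3 and T3+IFNγ arrays lie apart for 6 of the genes and overlap for Aspa and Ptgds, which lie apart at 48 h. Mal, Ppp1r14a and Car2 lie apart at 48 h as well, and Apod at 24 and 96 h but not at 48 h. At 8 h Mal and Ppp1r14a also lie apart, by narrow margins, and neither was called.

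In PDGF the signal of Mal was 4.61, 4.34 and 4.30. It was 4.71, 4.26 and 4.24 after 8 h of T3, 4.44, 4.38 and 4.10 after 24 h, and 4.46, 4.90 and 5.07 after 48 h, and then 10.88, 9.96 and 9.88 at 96 h. With IFNγ the signal at 96 h was 5.10, 5.20 and 5.61. The T3 arrays of 96 h thus stood far above all others, and the T3+IFNγ arrays of 96 h lay between them and PDGF without overlap with either. The step from 48 to 96 h within donors was 5.43 ± 0.86 (SD, n = 3) under T3 and 1.19 ± 0.18 with IFNγ. The IFNγ change at 96 h was −4.94 (SE 0.21), a 30.6-fold lower signal and the largest fall of the 14218 genes. With IFNγ Mal ended 0.89 ± 0.41 above PDGF, which was 15.5% ± 7.78 of its T3 rise.

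Opalin, the sialoglycoprotein, showed no step before 48 h. In PDGF its signal was 4.18, 4.31 and 4.16, and at 48 h of T3 it was still 4.33, 4.05 and 4.06. At 96 h the signal was 10.80, 9.0 and 9.0 under T3 and 6.50, 5.46 and 5.78 with IFNγ. No array overlapped between those groups, and donor 1 was the highest in both. The step from 48 to 96 h was 5.45 ± 0.88 under T3 and 1.90 ± 0.55 with IFNγ, so that 31.1% ± 5.64 of the rise was kept. The IFNγ change at 96 h was −3.68 (SE 0.31), or 12.9-fold lower.

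Ppp1r14a, the inhibitor of myosin phosphatase, began earlier. Its signal in PDGF was 4.47, 4.80 and 4.49, and after 48 h of T3 it was 5.96, 6.84 and 6.89, against 5.02, 4.40 and 4.64 with IFNγ. At 96 h it was 10.66, 10.38 and 10.65 under T3. With IFNγ it was 5.17, 7.23 and 7.67 at 96 h, and this spread between donors was the widest of any group among the 8 genes. At 96 h donor 1 kept 11.3% of the T3 rise, donor 2 kept 43.5% and donor 3 kept 51.6%, and at 48 h the share was 7.90% ± 28.1, with donor 1 the highest (36.8%) and donor 2 below 0. The IFNγ change was −1.88 (SE 0.39) at 48 h and −3.88 (SE 0.39) at 96 h.

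Car2 already had a signal above the median of all values in the PDGF cultures, and its course went down before it went up. In PDGF its signal was 7.65, 7.69 and 7.94. After 24 h it was 7.51, 6.71 and 6.47 under T3 and 6.74, 5.81 and 6.37 with IFNγ, below PDGF in every donor. Under T3 it was back near the PDGF level at 48 h (7.64, 7.49 and 7.50) and reached 11.36, 11.02 and 11.28 at 96 h. With IFNγ it was 7.50, 8.35 and 8.76 at 96 h, so donor 1 ended 0.14 below its PDGF value and donors 2 and 3 ended 0.66 and 0.83 above theirs. The IFNγ change at 96 h was −3.02 (SE 0.27), or 8.09-fold lower, and 13.6% ± 15.3 of the T3 rise was kept. The other probe set of Car2 gave 7.26% ± 17.3, with donor 1 again below 0.

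Galnt6, the glycosyltransferase, was dim in all but 1 group. Its signal in PDGF was 3.82, 4.01 and 3.68, and under T3 it was 3.99, 3.98 and 4.31 at 48 h. By 96 h of T3 it had reached 7.26, 6.59 and 6.94. With IFNγ it was 4.04, 3.87 and 3.69 at 96 h. These last values overlapped with PDGF, and the difference from PDGF was 0.03 ± 0.18. The share of the T3 rise kept was 0.37% ± 5.97, and the step from 48 to 96 h was 2.84 ± 0.38 under T3 and −0.02 ± 0.23 with IFNγ. The signal of Galnt6 lay under the median of all values in every array except those of T3 at 96 h, and no test of detection above background was made, so its share is read against a low signal.

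Aspa and Ptgds followed a different course, and at 96 h they do not bear out the description as genes most blocked by IFNγ. Aspa stood at 5.68, 5.90 and 5.95 in PDGF and at 10.76, 9.90 and 9.41 after 48 h of T3. With IFNγ it stood at 8.79, 7.81 and 8.68 at 48 h, below T3 in all 3 donors, and the change was −1.60 (SE 0.29). At 96 h the signal was 11.87, 11.48 and 11.47 under T3 and 11.30, 11.62 and 11.46 with IFNγ. Those ranges overlapped, and 97.7% ± 6.12 of the T3 rise was kept, against 62.6% ± 15.6 at 48 h.

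For Ptgds too the gap of 48 h had closed at 96 h. The signal in PDGF was 4.21, 4.20 and 4.03, and at 48 h it was 8.46, 7.41 and 5.99 under T3 but 4.80, 4.56 and 4.59 with IFNγ. The IFNγ change at 48 h was −2.64 (SE 0.34), or 6.22-fold lower, the third largest fall at that time. At 96 h the signal was 11.29, 10.90 and 10.91 under T3 and 11.43, 10.98 and 10.81 with IFNγ, and 101% ± 1.82 of the T3 rise was kept. The step from 48 to 96 h was 3.75 ± 1.07 under T3 and 6.42 ± 0.21 with IFNγ. In every donor the step with IFNγ was the larger of the 2, as it was for Aspa (1.59 ± 0.47 under T3 and 3.04 ± 0.68 with IFNγ).

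**Figure D2:**
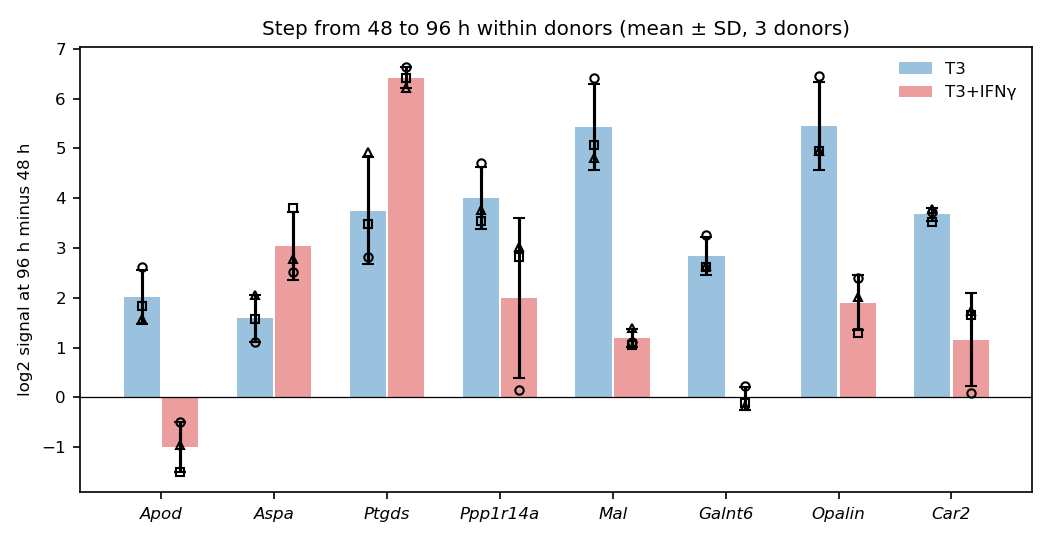
Change of the log2 signal from 48 to 96 h (vertical axis) for each gene under T3 (blue) and T3+IFNγ (red), with bars for the mean, whiskers for the SD and symbols for donors 1 (circle), 2 (square) and 3 (triangle). Under T3 the step was positive for all 8 genes; with IFNγ it was larger than under T3 for Aspa and Ptgds, smaller for the other 6, near 0 for Galnt6 (−0.02) and negative for Apod (−0.99).

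Apod, the lipid carrier, was early rather than late on the log2 scale. In PDGF its signal was 5.61, 4.84 and 5.35, and after 24 h of T3 it was already 10.80, 10.26 and 10.01, against 9.69, 9.28 and 9.17 with IFNγ. At 48 h the groups overlapped, with 9.86, 10.61 and 10.95 under T3 and 10.43, 10.93 and 10.73 with IFNγ. At 96 h the signal was 12.48, 12.45 and 12.52 under T3 and 9.93, 9.43 and 9.77 with IFNγ. The T3 cultures gained 2.01 ± 0.54 between 48 and 96 h, whereas with IFNγ the signal moved by −0.99 ± 0.50, lower in all 3 donors. The share of the T3 rise kept was 80.9% ± 1.99 at 24 h, 105% ± 8.73 at 48 h and 61.6% ± 1.32 at 96 h.

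Tests were made for 8 and 24 h, on the assumption above about the times of the choice. After 8 h of T3 none of the 8 genes was called higher or lower than in PDGF, whereas 7.31% of all genes were called higher and 5.37% lower; at an unadjusted p under 0.05 limma gave 1 higher (Apod) and 1 lower (Car2). The closest were Car2, with a change of −0.80 (SE 0.27, limma adjusted p = 0.0576) in 3 of 3 donors, and Apod, with 0.93 (SE 0.34, limma adjusted p = 0.0766) in 3 of 3 donors. Both passed with donor as a block (limma adjusted p = 0.0427 and 0.0433) and without replicate 1 (0.0129 and 0.0292). After 24 h 2 of the 8 had risen, against 17.1% of all genes. Apod rose by 5.09 (SE 0.34, limma adjusted p = 1.41e-10), or 34.0-fold, and Aspa by 0.76 (SE 0.29, limma adjusted p = 0.0429), or 1.69-fold, each in all 3 donors. Car2 fell by 0.86 (SE 0.27, limma adjusted p = 0.0159), against 17.8% of all genes called lower. The calls of Aspa and Car2 at 24 h were lost when donors were left out. Aspa missed the threshold without donor 1, 2 or 3 (limma adjusted p = 0.201, 0.0617 and 0.12), and Car2 without donor 2 or 3 (0.15 and 0.311). Mal, Opalin, Ppp1r14a, Ptgds and Galnt6 had changes of −0.17 to 0.14 at 24 h and were not called. Between 8 and 24 h of T3, Apod was the sole member called, rising by 4.16 (SE 0.34, limma adjusted p = 6.2e-09), against 10.7% of all genes called higher and 12.4% lower.

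In the same window no change of the 8 genes with IFNγ passed the threshold in the fit of group means, which did not pair arrays by donor. Under T3 alone none of the 8 was called higher than PDGF at 8 h, and only Apod and Aspa were at 24 h. Where a gene had not yet risen, these comparisons cannot show whether IFNγ held back its rise. At 8 h none of the 8 was called between T3+IFNγ and T3, against 1.58% of all genes called lower and 3.69% higher (limma, 0 also at an unadjusted p under 0.05), and the changes ran from −0.49 (Apod) to 0.19 (Aspa). At 24 h again none was called, against 6.35% lower and 5.96% higher, with 2 lower (Apod and Car2) at an unadjusted p under 0.05 by limma. Apod had the largest change at 24 h, −0.97 (SE 0.34, limma adjusted p = 0.0644), lower with IFNγ in 3 of 3 donors, and the groups did not overlap. It passed with donor as a block (limma adjusted p = 0.0355) and, without replicate 1, at an adjusted p of 0.00499. Car2 had a change of −0.59 (SE 0.27, limma adjusted p = 0.188), also lower in 3 of 3 donors. None of the 8 had an IFNγ effect that differed between 24 and 8 h, as tested by the interaction (the smallest limma adjusted p was 0.818, for Car2, against 0.359% of all genes called higher and 0.309% lower, with 0 members at an unadjusted p under 0.05). Against PDGF, the T3+IFNγ cultures of 24 h had Apod higher by 4.11 (SE 0.34, limma adjusted p = 1.47e-09) and Aspa higher by 0.92 (SE 0.29, limma adjusted p = 0.0121), or 2 of 8 against 19.7% of all genes. Aspa missed the threshold without replicate 1 or 3 (limma adjusted p = 0.0796 and 0.0581). Car2 was lower, with a change of −1.45 (SE 0.27, limma adjusted p = 0.000143), against 21% of all genes. At 8 h the T3+IFNγ cultures had Car2 alone lower than PDGF, with a change of −0.78 (SE 0.27, limma adjusted p = 0.0491), against 9.66% of all genes called lower and 8.95% higher, and this call was lost without replicate 2 or 3 (limma adjusted p = 0.18 and 0.234).

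The calls at 48 and 96 h follow from the choice of the genes and nothing is read from them. With IFNγ, 4 of the 8 were called lower than T3 at 48 h (Mal, Ppp1r14a, Aspa and Ptgds, but 2 without replicate 2 or 3), beside 8.53% of all genes called lower and 7.57% higher. At 96 h 6 were called lower (all except Aspa and Ptgds), beside 5.63% lower and 7.91% higher. Over PDGF, 4 of the 8 were called higher after 48 h of T3 (beside 17.5% of all genes, and 25.7% lower) and all 8 after 96 h (23.4%, and 29.5% lower). With T3+IFNγ 2 were higher than PDGF at 48 h (Apod and Aspa, beside 16.7%) and Car2 was lower (25.9%), and 6 were higher at 96 h (all except Car2 and Galnt6, beside 22.4%, and 27.5% lower). At the edge of the choice, the falls at 96 h ranked next to those of the members were Cfap20dc (−3.21), between Opalin and Galnt6, and Dixdc1 (−2.71), Mast4 (−2.70) and Ttll7 (−2.63), just under Apod (−2.77). At 48 h Prickle1 (−3.52) and Dct (−3.07) had larger falls than Ptgds, and Aspa ranked at place 36 with Mog (−1.61) just above and Rps6ka2 (−1.58) just below.

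Onset under T3 was measured as the midpoint time, at which the log2 signal passed the middle between PDGF and T3 at 96 h, interpolated between the sampled times. It was 18.2 ± 1.75 h for Apod, 39.2 ± 3.16 h for Aspa, 52.1 ± 9.51 h for Ptgds, 59.7 ± 4.08 h for Ppp1r14a, 69.8 ± 3.12 h for Galnt6, 70.0 ± 2.28 h for Mal, 72.4 ± 0.92 h for Opalin and 73.4 ± 1.36 h for Car2 (mean ± SD, n = 3 donors). Apod stood clear of the rest on this scale. The donors of Aspa (35.79 to 42.01 h) and Ptgds (43.8 to 62.46 h) did not overlap, but only by a narrow margin. Ptgds and Ppp1r14a overlapped in their donors, and so did Galnt6, Mal, Opalin and Car2, whose order is not resolved with samples only at 48 and 96 h. On a linear signal scale, which weighs the last doublings most, the midpoint of Apod moved to 63.5 h, that of Aspa to 59.3 h and that of Ptgds to 69.8 h.

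**Figure D3:**
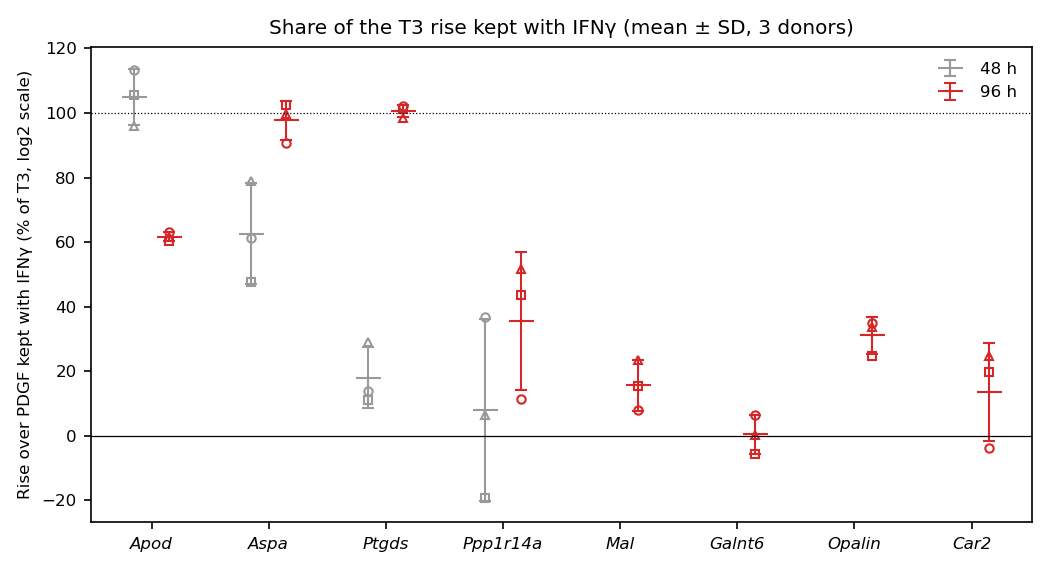
Share of the rise over PDGF under T3 that was present with IFNγ (percent of the T3 rise on the log2 scale, vertical axis) at 48 h (grey) and 96 h (red), with donors as symbols (circle, square and triangle for donors 1, 2 and 3) and mean ± SD. Genes stand in order of their midpoint time, and 48 h is shown where T3 had raised the gene by at least 1 in every donor. At 96 h the genes spread from 0.37% (Galnt6) to 101% (Ptgds), and from 48 to 96 h the mean rose for Aspa, Ptgds and Ppp1r14a (though not in donor 1 of Ppp1r14a) and fell for Apod.

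The share kept at 96 h ran in the order Galnt6 (0.37%), Car2 (13.6%), Mal (15.5%), Opalin (31.1%), Ppp1r14a (35.5%), Apod (61.6%), Aspa (97.7%) and Ptgds (101%). Neighbours among the first 3 overlapped in their donors, as did Opalin and Ppp1r14a, whereas Apod lay apart from both neighbours, and Aspa and Ptgds overlapped. Read on the linear scale the shares were smaller where the rise was large: 1.79% for Mal, 5.53% for Opalin, 7.21% for Ppp1r14a and 14.2% for Apod, with Ptgds at 103%. A share of 61.6% for Apod on the log2 scale is therefore the same data as a 6.83-fold lower signal at 96 h.

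The share is set against the 972 other genes that T3 raised by at least 1 (log2) at 96 h in every donor, which shared the arrays with the 8 and were chosen by their T3 rise. Their median share kept at 96 h was 85.4%, with 5% of them under 30.5%, and 105 of them (10.8%) kept less than 50%. Of these 972, 12 (1.2%) kept less than Galnt6, 20 (2.1%) less than Car2, 22 (2.3%) less than Mal, 52 (5.3%) less than Opalin and 60 (6.2%) less than Ppp1r14a. Apod stood at 17.7%, and Aspa and Ptgds, at 73.1% and 76.2%, were above the middle. The members other than Aspa and Ptgds were chosen by falls in the same arrays of 96 h. Their low places follow from that choice, and nothing is read from them. Timing moved with the share among the 972 other genes as well. Both measures use the same PDGF arrays and T3 arrays of 96 h, so they are not independent. The median share was 95.9% for genes with a midpoint before 8 h, 89.7% from 8 to 24 h, 86.4% from 24 to 48 h and 74.4% from 48 to 96 h, and 22.3% of the 309 latest genes kept less than 50%. Ptgds had a midpoint in that last interval and kept its whole rise. Apod, with an early midpoint on the log2 scale (63.5 h on the linear scale), did not.

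**Figure D4:**
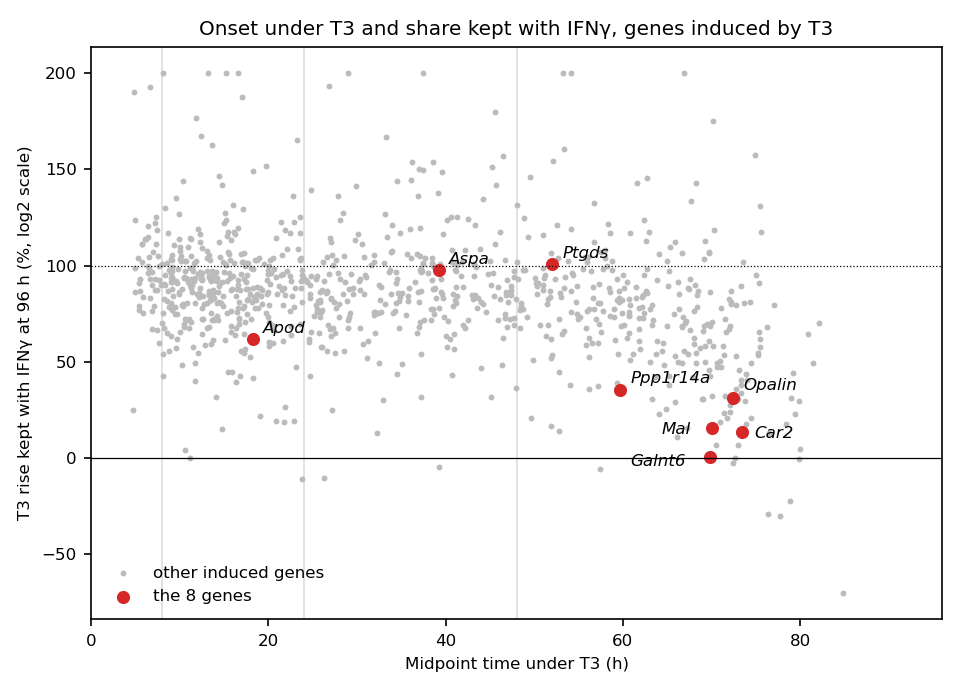
Midpoint time under T3 (h, horizontal axis) and share of the T3 rise kept with IFNγ at 96 h (percent on the log2 scale, vertical axis), as means over 3 donors. Red points are the 8 genes and grey points are 972 other genes raised by T3, of which 9 beyond the axis are drawn at its edge; grey vertical lines mark 8, 24 and 48 h. Mal, Opalin, Galnt6 and Car2 lie together at the lower right near 70 h, with 0.37% to 31.1% kept.

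Pairs of the 8 genes differed in how far their signals ran together over the 27 arrays, which share donors and time courses. Pearson's r was 0.974 for Mal and Galnt6, 0.969 for Mal and Opalin and 0.945 for Aspa and Ptgds, and lowest for Car2 and Apod (0.45). Mal, Opalin and Galnt6 were high mainly in the T3 arrays of 96 h. Their r therefore rests largely on that group, which also entered the choice of the genes. Among all other genes, Mal was most like Ermn (r = 0.978), Jcad and Clca1, Opalin like Pex11a (0.977), Spock1 and Cdc42ep1, and Galnt6 like Dapk2 (0.968), Ermn and Mrap2. Ppp1r14a was most like Otud7b (0.963), Myo1d and Zdhhc9, and Car2 like Clca1 (0.947), Cfap20dc and Gsn. Apod was most like Dstyk (0.976), Myrf (0.96) and Rab7a, Aspa like Fah (0.987), Sephs2 and Septin4, and Ptgds like Birc7 (0.994), Kndc1 and Card19.

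Other genes of mature oligodendrocytes held both kinds of course. Of 33 measured, T3 raised 31 at 96 h (beside 23.4% of all genes), and IFNγ lowered 2 at 8 h (beside 1.58%), 12 at 24 h (6.35%), 13 at 48 h (8.53%) and 16 at 96 h (5.63%). IFNγ raised 1 at 8 h (beside 3.69%), 1 at 48 h (7.57%) and none at 24 or 96 h (limma, 0 also at an unadjusted p under 0.05). The median IFNγ change at 96 h was −0.52, beside −0.02 over all genes. Of the 28 with a T3 rise of at least 1, the median share kept was 79.3%, and 5 kept less than 50%: Hapln2 (6.6%), a link protein of the nodal matrix, Ermn (6.8%), a cytoskeletal protein of myelin, Gsn (15.6%), the actin-severing gelsolin, Klk6 (31.8%), a protease, and Plekhh1 (43.4%). All 5 had midpoint times between 67.2 and 73.9 h. Cryab and Mobp had midpoints of 71.6 and 67.1 h and kept 72.3% and 71.2%, so a late midpoint was not always followed by a small share on the log2 scale. A large share on that scale did not mean a small fall, and Mobp fell by more than Ermn and Plekhh1. In the called falls at 96 h, Mobp fell by 2.60 (SE 0.30, limma adjusted p = 1.19e-06), Ermn by 2.47 (SE 0.17, limma adjusted p = 1.61e-10) and Plekhh1 by 2.31 (SE 0.17, limma adjusted p = 6.22e-10), each in 3 of 3 donors. Mbp kept 98.8% ± 0.5 and Cnp 96.8% ± 3.1.

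Of 10 regulators of oligodendrocyte differentiation, T3 raised 7 at 24 h (beside 17.1% of all genes). IFNγ lowered 2 at 24 h (beside 6.35%) and 2 at 96 h (5.63%), and none at 8 or 48 h by limma (2 and 0 at an unadjusted p under 0.05). It raised Nkx2-2 alone, at 8, 48 and 96 h (beside 3.69%, 7.57% and 7.91%). Myrf had its midpoint at 16.8 h and kept 87.3% ± 1.0 of its rise at 96 h, and it was lower with IFNγ by 0.67 in mean (change −0.67, SE 0.21, limma adjusted p = 0.0374). Nkx6-2 fell by 1.53 (SE 0.38, limma adjusted p = 0.00673), and Nkx2-2 rose by 1.04 (SE 0.26, limma adjusted p = 0.00646), after 0.88 at 8 h (SE 0.26, limma adjusted p = 0.0449) and 1.90 at 48 h (SE 0.26, limma adjusted p = 9.18e-06). All 6 regulators with a T3 rise of at least 1 kept at least 65.2% of it.

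The families and pathways around the 8 genes are given beside the shares of all genes called higher and lower with IFNγ, which at 24 h were 5.96% and 6.35%, at 48 h 7.57% and 8.53%, with 7.91% higher and 5.63% lower at 96 h. Among 10 relatives of Mal with a MARVEL domain, 3 were higher with IFNγ at 96 h (Cmtm7 by 1.64, SE 0.36, limma adjusted p = 0.00282, Cmtm6 and Cmtm3) and none lower, and plasmolipin (Pllp), another myelin proteolipid, kept 90.0% ± 2.0 of its T3 rise. Of 13 other carbonic anhydrases, 2 were lower at 96 h (Car14 by 0.74 in mean, change −0.74, SE 0.21, limma adjusted p = 0.0207, and Car4, lower in 2 of 3 donors). Under T3 alone Car14 had risen by 5.48 (SE 0.21) over PDGF at 96 h, so its fall with IFNγ was small beside its rise. At 24 h Car8 fell by 1.64 (SE 0.23, limma adjusted p = 1.68e-05) and Car1 rose by 0.45 (SE 0.14, limma adjusted p = 0.0425). Of 12 other GalNAc transferases, 2 were higher at 96 h (Galnt13 by 1.19, SE 0.28, limma adjusted p = 0.00514, and Galnt2) and 3 lower (Galnt14, Galnt4 and Galnt18), with changes of −0.66 to −0.33. Of 17 genes of prostaglandin synthesis, transport and reception, 3 were higher at 24 h, 4 at 48 h and 2 at 96 h, and none lower. Hpgd, which breaks prostaglandins down, rose by 5.86 at 24 h (SE 0.28, limma adjusted p = 2.13e-13) and by 4.11 at 96 h (SE 0.28, limma adjusted p = 1.34e-10). Ptgs2, the inducible cyclooxygenase, which acts upstream of PTGDS, rose by 2.86 at 24 h (SE 0.64, limma adjusted p = 0.00377). Of 10 genes of N-acetylaspartate and acetate metabolism, 2 were lower at 24 h (Rimklb and Acly) and 1 at 96 h (Rimkla, change −0.88, SE 0.12, limma adjusted p = 1.79e-05). Of 20 genes of myosin phosphatase and its regulators, Mylk, which phosphorylates myosin light chain, rose by 1.32 at 24 h (SE 0.24, limma adjusted p = 0.000572), and Ppp1ca was lower at 96 h (change −0.34, SE 0.10, limma adjusted p = 0.0202). None of 11 other apolipoproteins and lipocalins was called with IFNγ at 24 or 96 h by limma (at an unadjusted p under 0.05, 2 genes at 24 h, of which 1 was lower, and 3 at 96 h, of which 1 was lower), and at 48 h clusterin (Clu) rose by 1.28 (SE 0.37, limma adjusted p = 0.0183).

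Values of other cells and of the arrays stand beside these results. The IFNγ-response genes Cxcl10, Gbp2, Psmb8, Irf1, Tap1 and B2m were all higher with IFNγ at every time (6 of 6). OPC and lineage markers were present in every group, with all 11 measured above the median of all values. Their summed linear signal at 96 h was 19161 to 22023 with IFNγ and 16276 to 20521 under T3. At that time Pdgfra (0.95, SE 0.17, limma adjusted p = 0.000331) and Bcan (0.81, SE 0.20, limma adjusted p = 0.00827) were called higher with IFNγ, and no other of these markers was called. Of 15 measured markers of microglia and macrophages, 7 were higher with IFNγ at 96 h, their summed linear signal ran from 1779 to 7533 with IFNγ, from 644 to 928 under T3 and from 1922 to 4103 in PDGF, and under T3 13 of the 15 lay under the median of all values. The summed signal of 14 vascular and fibroblast markers was 359 to 429 with IFNγ and 321 to 350 under T3 at 96 h, with at least 13 of the 14 under the median, and Igf2 was called higher (1.57, SE 0.19, limma adjusted p = 2.08e-06). The 10 neuronal markers summed to 1524 to 2060 with IFNγ and 624 to 917 under T3, with 3 called higher (Nefm, Nefl and Tubb3), and the 10 astrocyte markers to 16508 to 20953 and 17504 to 22987. Of these 10, Aldh1l1 was called higher (1.5, SE 0.45, limma adjusted p = 0.0254) and Fgfr3 (−0.63, SE 0.17, limma adjusted p = 0.0122) and Gjb6 (−0.32, SE 0.10, limma adjusted p = 0.0287) lower. The part of these cells in the falls of the 8 genes was not tested. In 2 arrays of donor 2, those of T3+IFNγ at 8 and at 24 h, the 3′ minus 5′ signal of Gapdh was 0.372 and 0.108, against at most 0.066 in the others. Without these arrays, added as a check after the data were seen, the calls of the 8 genes at 24 h did not change, and Car2 at 8 h of T3 passed (change −0.80, limma adjusted p = 0.0491).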

How the data were processed

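The values deposited by the authors are RMA output (version not given in the sources used here). RMA corrects the background, normalizes by quantiles and gives each probe set a log2 signal; their notes name limma for comparisons. The log2 values ran from 2.28 to 14.49 (median 5.99, medians of single arrays 5.95 to 6.03) and were used as deposited. The number of arrays limits the precision. Of 31099 probe sets, the platform annotation of 2016 names 1 gene symbol for 20832, several for 436 and none for 9831, and 20764 were matched by Entrez identifier to GRCr8 in RefSeq. The probe set with the highest mean stood for each of 14218 genes (4526 had more than 1).

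All 27 arrays entered a single fit of group means in limma 3.58.1 (R 4.3.3), with eBayes and Benjamini-Hochberg adjustment within each comparison. The share kept was (T3+IFNγ minus PDGF) over (T3 minus PDGF) within donors, where T3 raised the gene by at least 1. Tables were made with NumPy 2.4.6 and pandas 2.3.3 and plots with matplotlib 3.10.9, in Python 3.11.15. The steps were tested on simulated data. Other planned promoter motifs are not reported here. Alternatives were a replicate block, array centring, a signal filter, mean probe sets, array weights and leaving out replicates.

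The members and gene lists were chosen with earlier results of these data known. Named beside the members were, for each list, up to 3 called genes with the largest change at 24 or 96 h that moved the same way in all 3 donors and called genes that went against their list, and the 3 genes most alike each member. The genes just inside or outside the choice, the genes that kept less than 50%, Cryab, Mbp, Cnp, Pllp, Clu and the marker genes with values were named after their values were seen. The labels give replicate numbers as donors, and deviations from group means correlated with a median r of 0.31 within donors against −0.171 between them (107 of 108 same-donor pairs over 0.1), so the numbers pair the arrays. The highest correlation between 2 arrays was 0.9967.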

Additional observations from a re-analysis of the deposited data

How the results depend on the processing

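The counts below are of the 8 genes called. With donor as a replicate block, 1 gene instead of 0 was called higher after 8 h of T3 (Apod) and 1 instead of 0 lower with IFNγ at 24 h (Apod). Array weights gave 1 and 1 in these comparisons. The block changed no other count by over 1.5 times, and Car2 also passed at 8 h of T3. Leaving out a replicate gave 0 to 1 after 8 h of T3, 1 to 1 instead of 2 after 24 h of T3 (Aspa was lost each time), 0 to 1 for IFNγ at 24 h, 1 to 2 for T3+IFNγ against PDGF at 24 h (Aspa was lost without replicate 1 or 3), and 2 to 5 instead of 4 for IFNγ at 48 h (2 without replicate 2 or 3). The filter on low signal passed 3 members, so fewer genes could be called: 1 instead of 0 for IFNγ at 24 h, and 2, 1, 3, 2 and 2 instead of 4, 4, 8, 6 and 6 for T3 and IFNγ at 48 h, T3 and IFNγ at 96 h, and T3+IFNγ against PDGF at 96 h. The median share kept moved from 33.28% to 6.37% on the linear scale, and the median midpoint from 64.75 h to 71.05 h on that scale and to 61.4 h with time on a log scale. The cause of these moves was not tested. Of the changes of single genes under all alternatives, 849 kept their direction and, where tested, their side of the threshold, 13 passed it and 9 missed it, and none reversed.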
